A study of Mus musculus with 4 samples.

Results

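Intraflagellar transport (IFT) genes encode the particles and motors that carry material along cilia. They were examined in mouse embryos with 0 or 1 normal copies of Noto, a homeobox transcription factor gene active in the node. The set was fixed by name and holds 31 genes, namely 16 of the IFT-B particle, 6 of the IFT-A particle and 9 of the motors. All 31 had at least 1 probe on the array (74 probes of 41174 in all), and 30 were measured, out of 18607 measured genes. Probes were matched by symbol, by older name or by transcript accession through RefSeq. For 7 members at least 1 probe carried an older or clone name in the files. Examples are Rabl5 for Ift22, Rabl4 for Ift27 and 1700019E19Rik for Ift43.

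RNA came from the node-containing distal piece of embryos at the early headfold stage, about E7.75, on an Sv129/CD-1 hybrid background. One group was homozygous for the NotoGFP allele (Noto GFP/GFP) and the other heterozygous (Noto GFP/+), so the controls carried 1 copy of the same allele and no wild-type group was measured. Each genotype was 1 pool of 120 to 150 pieces, whose size the labels do not give in a single way. Both pools were hybridised together on a 2-colour array and again on a second array with the dyes exchanged, which gives 4 samples on 2 arrays but only 1 RNA pool per genotype. The spread between arrays is therefore technical, a significance test was not possible.

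Ratios are homozygote over heterozygote on a log2 scale, so that a positive value means more RNA in the homozygous pool. They are given as the mean ± SD over the 2 arrays (n = 2). A probe counted as measured when 1 genotype or both rose well above background on array 1 and again on array 2, and the brightest measured probe stood for its gene. A gene was called higher or lower when the ratio passed 1.5-fold, a log2 value of 0.585, with the same sign in both hybridisations. The median foreground intensity of gene spots lay between 305 and 722 over backgrounds of 45.5 to 67, between 64% and 81.5% of gene spots were well above background, and no gene spot was saturated. Of 9 markers of node and notochord, 8 were measured and all 8 were well above background in all 4 samples, among them Foxa2, T, Shh and Nodal. Their ratios ran from -0.52 (Foxj1) to 0.33 (T), with -0.44 for Shh, and 0 were called. On both arrays 2 lay above 0 and 4 below, against 25.7% and 34% of all measured genes. The listed marker left without a measured probe was Noto itself, whose values were not analysed here. Of 27 markers of heart, blood, endoderm, mesoderm, neural ectoderm, and trophoblast and decidua, 26 were measured. Of these, 1 was higher and 1 lower, against 0.0591% and 2.35% of all measured genes. The higher one was Prl8a2 (1.11 ± 0.03), a prolactin-family gene of the decidua, the maternal tissue around the embryo. The other trophoblast and decidua markers went both ways (Prl3d1 0.36, Ascl2 0.07 and Plet1 -0.53). The lower one was Meox1, of the paraxial mesoderm (-0.62 ± 0.04), whose fellow markers lay near 0 (Mesp1 0.08, Tbx6 0.06 and Msgn1 -0.01). The part of these tissues in the ratios of other genes was not tested.

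Cilia are built at their tips, and the building material is carried there by IFT trains. Kinesin-2 pulls trains of IFT-B outward to the tip, and dynein-2, attached with IFT-A, brings them back. In the mouse node, cilia that rotate drive a leftward flow that sets the left-right axis, and embryos without Kif3a, Kif3b, Ift88 or Ift172 lack these cilia. IFT serves motile and immotile cilia alike, and immotile cilia are found on most cells of the embryo. FOXJ1 switches on genes of motile cilia, whereas RFX factors act on genes of both kinds, IFT genes among them.

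The homozygous and heterozygous pools gave nearly the same IFT gene signals. None of the 30 measured members was called (0 higher and 0 lower). Of all measured genes, 2.41% were called (0.0591% higher and 2.35% lower), and of those brighter than the median gene, 0.656% (0.0215% higher and 0.634% lower). With so few calls among bright genes, 0 of 30 is near the background. The median ratio of the 30 was 0.00 (0.06 on array 1 and -0.05 on array 2), against -0.02 for all measured genes, and single members ran from -0.32 to 0.35. The median size of the ratio, whatever its sign, was 0.088 for the members and 0.090 for genes brighter than the median. All 30 representing probes were well above background in both genotypes on both arrays, and 27 were brighter than the median gene. In such bulk pieces, fewer cells that express a gene and less RNA per cell cannot be told apart. The signals are those of the whole piece, and a change confined to the node was not tested.

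Most members did not keep a direction between arrays. Ratios lay above 0 on both arrays for 6 members (Ift52, Ift57, Ift122, Ttc21b, Kifap3 and Dync2h1), below 0 on both for 6 (Ift22, Ift27 and Tctex1d2, and also Hspb11, Ift74 and Wdr34, whose means turn above 0 with median centring) and on opposite sides for 18. Median centring in place of loess moves ratios differently at different brightness. Under it the median of all measured genes was 0.12 and that of genes brighter than the median 0.202. Hspb11, Ift74 and Wdr34 (0.07, 0.04 and 0.10) stayed below the latter. Among genes brighter than the median, 24.5% lay above 0 and 25.1% below 0 on both arrays, so the members' shares are near the background. The mean exceeded the SD over arrays in size for 11 of 30 members, and for 39.6% of genes brighter than the median. Both homozygote levels exceeded both heterozygote levels for 3 members (Ift52, Ift122 and Dync2h1) and fell below them for 1 (Ift74), against 10.7% and 16.6% of all measured genes and 9.74% and 9.62% of those brighter than the median. Lowering the limit to a log2 value of 0.322 still called 0 members, against 7.55% of all measured genes (1.18% higher and 6.37% lower) and 2.58% of those brighter than the median. With array 2 left unturned, so that a dye difference would show as a call, 0 members and 0.0752% of all measured genes passed 1.5-fold.

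**Figure D1:**
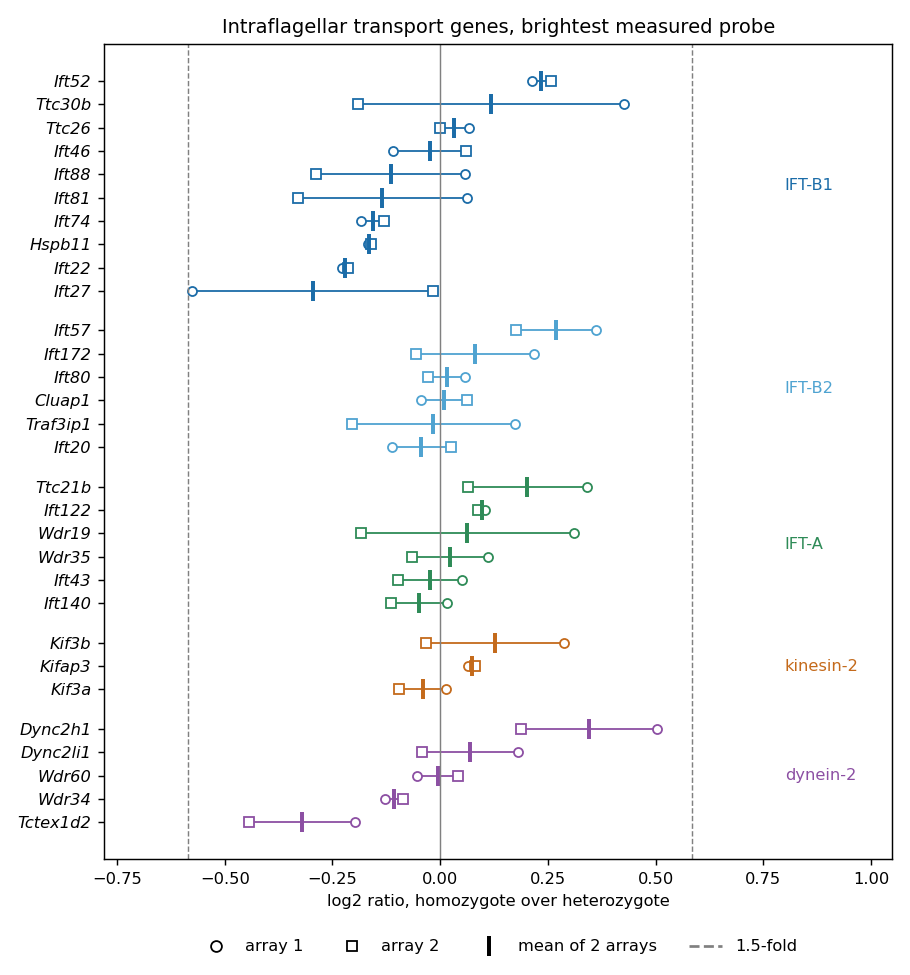
Log2 ratio of homozygote over heterozygote (x axis) for the 30 measured members, grouped by subcomplex. Circles and squares are arrays 1 and 2, vertical bars their mean, and dashed lines the 1.5-fold limit of 0.585; no member lies beyond it, and the line of Ift27 reaches from -0.58 to -0.02.

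IFT-B is the particle that binds kinesin-2 and carries tubulin and other cargo outward. It has a core, IFT-B1, and a peripheral part, IFT-B2. The median ratio of the 10 IFT-B1 members was -0.12 (-0.03 on array 1 and -0.15 on array 2), and that of the 6 IFT-B2 members was 0.01 (0.12 and 0.00). With median centring both moved up, to 0.073 and 0.23. All 16 were measured, their joint median was -0.02, and the difference between the subcomplexes was not tested.

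The highest IFT-B1 ratio was that of Ift52, a core subunit (chromosome 2, 162737318 to 162737377 on mouse build mm8). Its log2 level was 13.54 in the heterozygote and 13.75 in the homozygote on array 1, and 13.60 and 13.86 on array 2. The homozygote was thus the higher on each array by nearly the same amount, and the genotypes' levels did not overlap. The ratio was 0.24 ± 0.03, and a second probe read 0.27.

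The lowest IFT-B1 ratio was that of Ift27, a small GTPase that pairs with Hspb11 (also called IFT25) and is needed for Hedgehog signalling rather than for building cilia in the mouse. Its probe (chromosome 15, 77986735 to 77986794) gave levels of 15.96 in the heterozygote and 15.38 in the homozygote on array 1, and 14.92 and 14.91 on array 2. The difference was thus present on 1 array only, and the levels overlapped between genotypes. The ratio was -0.30 ± 0.39, with -0.58 on array 1 just short of the limit.

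The partner Hspb11 read -0.16 ± 0.01. The GTPase-like Ift22 read -0.22 ± 0.01, and the tubulin-binding pair Ift74 and Ift81 read -0.16 ± 0.04 and -0.13 ± 0.28. Hspb11, Ift22 and Ift74 thus lay slightly below 0 on both arrays with little spread, while Ift81 changed sign. With median centring the mean of Ift22 stayed below 0, and those of Hspb11 and Ift74 did not. Those of Hspb11 and Ift74 stayed below the median of genes brighter than the median, 0.202 under that setting. Ift88, whose loss removes node cilia, read -0.12 ± 0.24 (chromosome 14, 56471159 to 56471463), with opposite signs on the arrays. Ift46 (-0.02 ± 0.12), Ttc26 (0.03 ± 0.05) and Ttc30b (0.12 ± 0.44) made up the rest, and Ttc30b had the largest spread over arrays of all members.

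Among IFT-B2 genes, Ift57, which links the particle to kinesin-2, was the highest (chromosome 16, 49683636 to 49683695). Its level was 14.43 in the heterozygote and 14.80 in the homozygote on array 1, and 14.07 and 14.25 on array 2. The homozygote was the higher on each array, although the levels of the genotypes overlapped across arrays. The ratio was 0.27 ± 0.13, and its other measured probes read 0.31 and 0.38, again above 0 on both arrays.

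The lowest was Ift20, the subunit that also works at the Golgi apparatus (chromosome 11, 78356173 to 78356232). Its level was 15.77 in the heterozygote and 15.65 in the homozygote on array 1, and 15.52 and 15.54 on array 2. The genotypes overlapped, and the ratio was -0.04 ± 0.10. A second, nearly as bright probe read -0.19 ± 0.08, with heterozygote levels of 15.46 and 15.50 above both homozygote levels of 15.33 and 15.26, and the mean of its probes was -0.12. Ift172 (0.08 ± 0.19), Ift80 (0.02 ± 0.06), Cluap1 (0.01 ± 0.08) and Traf3ip1 (-0.02 ± 0.27) lay close to 0 with opposite signs on the arrays.

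IFT-A brings membrane proteins into cilia and takes part in the return journey, and mutants of several IFT-A genes have altered Hedgehog signalling. The 6 members had a median ratio of 0.04 (0.11 on array 1 and -0.08 on array 2). The highest was Ttc21b, a peripheral subunit (chromosome 2, 65986993 to 65987052). Its level was 11.44 in the heterozygote and 11.78 in the homozygote on array 1, and 12.04 and 12.10 on array 2. The homozygote was the higher on each array, with overlap across arrays, and the ratio was 0.20 ± 0.20; a second probe read 0.21.

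The lowest was Ift140, a core subunit (chromosome 17, 24826883 to 24826942). Its levels were 13.31 in the heterozygote and 13.33 in the homozygote on array 1, and 13.35 and 13.24 on array 2. The genotypes overlapped, and the ratio was -0.05 ± 0.09. Its 2 dimmer measured probes read -0.15 and 0.33. The core subunit Ift122 read 0.10 ± 0.01, above 0 on both arrays. Wdr19 (0.06 ± 0.35), Wdr35 (0.02 ± 0.12) and Ift43 (-0.02 ± 0.10) had opposite signs on the arrays.

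Kinesin-2, the outward motor, consists of the motor subunits Kif3a and Kif3b with the accessory subunit Kifap3, while Kif17 forms a separate motor. Kif3b was the highest (chromosome 2, 153024085 to 153024144). Its level was 10.65 in the heterozygote and 10.94 in the homozygote on array 1, and 10.94 and 10.91 on array 2. The homozygote was the higher on array 1 only, and the ratio was 0.13 ± 0.23, with -0.07 on its other probe. Kif3a, the lowest (chromosome 11, 53438359 to 53441425), had a heterozygote level of 12.36 on both arrays and homozygote levels of 12.37 and 12.27. The ratio was -0.04 ± 0.08, and a second probe read 0.10, so neither motor subunit kept a direction between probes.

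Kifap3 read 0.07 ± 0.01 on its brightest probe, and its other 2 probes read -0.02 and -0.33. Kif17 was the member that was not measured: of its 3 probes, 1 was well above background in a genotype on array 1 and 0 on array 2.

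Dynein-2 is the inward motor. Its 5 measured members had a median of -0.01, and by the brightest probes they held the highest and the lowest ratios of all 30 measured members. The lowest was Tctex1d2, a light chain (chromosome 16, 32346638 to 32348531, aligned in pieces). Its level was 14.72 in the heterozygote and 14.52 in the homozygote on array 1, and 14.46 and 14.02 on array 2. The homozygote was the lower on each array, the levels overlapped across arrays, and the ratio of its single probe was -0.32 ± 0.17.

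The intermediate chains Wdr34 (-0.11 ± 0.03) and Wdr60 (-0.01 ± 0.07) and the light intermediate chain Dync2li1 (0.07 ± 0.16) lay nearer to 0. The highest was the heavy chain Dync2h1, the subunit that moves along the microtubule (chromosome 9, 6929350 to 6929409). Its level was 12.86 in the heterozygote and 13.37 in the homozygote on array 1, and 12.73 and 12.92 on array 2. The homozygote levels lay above both heterozygote levels, and the ratio was 0.35 ± 0.22; the mean of all its measured probes was lower, at 0.17, and below that of Ift57, Ttc26, Ift52, Ttc21b and Ift172.

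Dync2h1 was also the 1 member whose measured probes differed by 0.5 or more, and its probes are shown because they do not give a single answer for the gene. It had 6 measured probes, spread over 236 kb of chromosome 9 on the minus strand. In the direction of transcription they read 0.50 ± 0.39, 0.07 ± 0.41, 0.31 ± 0.61, -0.51 ± 0.18, 0.29 ± 0.11 and 0.35 ± 0.22. Thus 5 had means above 0, of which 3 were above 0 on both arrays. The remaining probe, at 142 kb from the first, was below 0 on both (-0.39 and -0.64). It was designed on a RIKEN cDNA clone and not on the gene's reference transcript, and neither it nor the first probe was well above background in all 4 samples. Whether it lies in an exon or an intron was not analysed here. The probes at 0, 20 and 209.7 kb align to mm8 in pieces, as a probe across an exon junction does. Those at 0 and 209.7 kb and the first 30 bases of the probe at 142 kb are printed 5′ to 3′ as the files give them, in lower case with no base singled out.
Probe at 0 kb, chr9:7162893-7165624, minus strand: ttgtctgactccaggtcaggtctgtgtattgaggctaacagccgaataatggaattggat
Probe at 142 kb, chr9:7023245-7023274, minus strand: tcctctgtcttatagagcgaactttcatag
Probe at 209.7 kb, chr9:6941673-6955934, minus strand: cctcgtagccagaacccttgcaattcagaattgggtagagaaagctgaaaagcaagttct

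**Figure D2:**
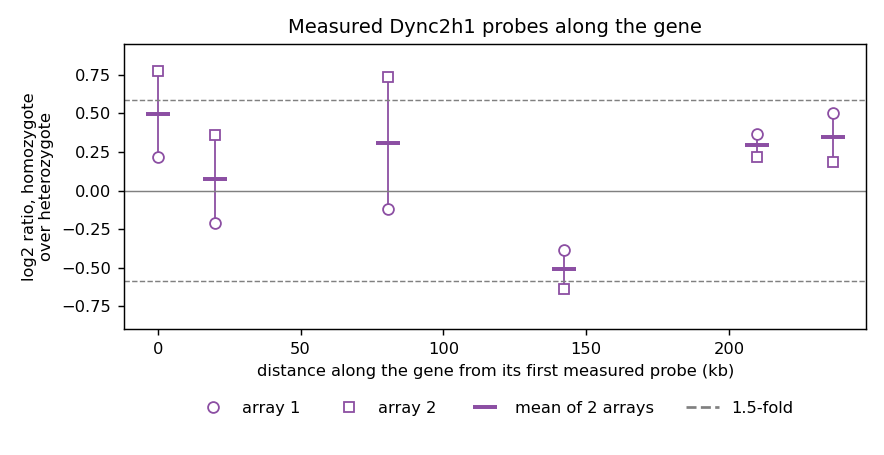
Log2 ratio of homozygote over heterozygote (y axis) for the 6 measured Dync2h1 probes, against distance in kb from the first measured probe in the direction of transcription. Circles and squares are arrays 1 and 2 and bars their mean; the probe at 142 kb has a mean of -0.51 and the other 5 have means from 0.07 to 0.50.

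Across the members, 20 had 2 or more measured probes. For 13 of them the probe means differed by less than 0.2, and none of the 62 measured probes passed the 1.5-fold limit on each array, as 2.1% of all measured probes did. Every probe lay above 0 on both arrays for Ift52, Ift57 and Ttc21b (3 of 20, against 13.4% of all genes with 2 or more measured probes), and below 0 on both for 0 of 20 (against 8.61%). Some members, chosen here after their values were seen, had dimmer probes that read higher or lower than the brightest. Ttc26 read 0.03 on its brightest probe and 0.34 and 0.41 on its dimmer ones, and Ift172 read 0.08 on its brightest and up to 0.34 on its dimmest. In the other direction, Wdr60 read -0.01 on its brightest probe and -0.20 and -0.29 on its dimmer ones, both below 0 on both arrays, as Kifap3 and Ift20 also read lower on another probe. The Ttc26 probe at 0.34 and the Wdr60 probe at -0.29 were not well above background in all 4 samples. The Ttc26 probe at 0.41 and the Ift172 probe at 0.34 were also dim, with a log2 brightness of 7.39 and 7.68. With the mean of probes in place of the brightest, Ift57 was the highest of all members (0.32), followed by Ttc26 (0.26), Ift52 (0.25) and Ttc21b (0.21), and Tctex1d2 stayed the lowest. The place of Ttc26 thus rests on its dim probes. Within subcomplexes the lowest was then Kifap3 (-0.09) in kinesin-2 and Ift43 in IFT-A, and Kif3a and Kif3b both read 0.03.

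**Figure D3:**
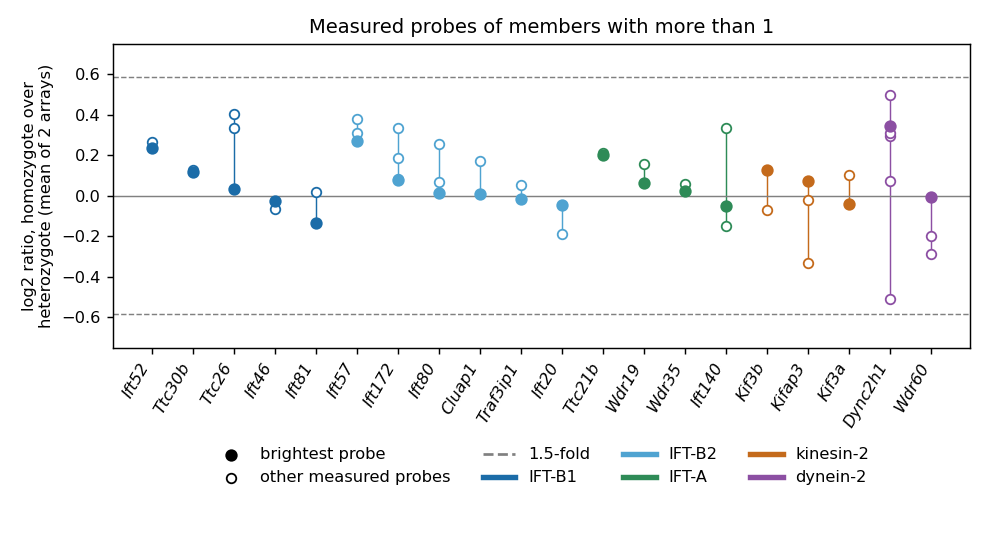
Log2 ratio of homozygote over heterozygote (y axis, mean of 2 arrays) of each measured probe, for the 20 members with more than 1 measured probe. Filled points are the brightest probe and open points the others; apart from Dync2h1, the probes of a member lie within 0.48 of each other.

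RFX factors bind the X-box, a pair of inverted half-sites found before many IFT genes. Promoters of 26 members, from 250 bases before to 50 bases after the start site, were available in the RefSeq table (build GRCm38.p6). The half-site GTTGCC, searched on both strands, was present in 12 of the 26 (46.2%) and in 12.5% of all 32851 promoters of that length. A pair of half-sites, GTTNCC and GGNAAC with 0 to 3 bases between them, was present in Ift57 and Ttc26 (7.69% of members' promoters, against 0.804% of all); each of these also holds the half-site. Members with the half-site included Ift57 and Dync2h1, which read above 0 on both arrays, and Ift27 and Tctex1d2, which read below 0 on both. The others with the half-site were Traf3ip1, Ift172, Ttc26, Kif3a, Wdr35, Ift88 and Ift140, with opposite signs on the arrays, and Kif17, which was not measured. A window of 28 bases around 1 match per gene is given, with the match in capitals. It shows the pair for Ift57 and Ttc26 and a half-site for Ift27 and Tctex1d2. Ift57, Ttc26 and Tctex1d2 each hold a further half-site match that is not printed. A match is a description of these letters and not evidence of binding.
Ift57, chr16:49699227-49699254, plus strand: ccctgcgGTTGCCTGGTAACggtgggga
Ttc26, chr6:38381484-38381511, plus strand: cggcggcGTTGCCGTGGAAACggagctc
Ift27, chr15:78174074-78174101, minus strand: ggttgatgatgGTTGCCaggagcctgtt
Tctex1d2, chr16:32419592-32419619, plus strand: gcaagtggtcgGTTGCCtaacttctctt

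The regulator Rfx3 read 0.02 ± 0.01 on its brightest probe. Its other measured probes read 0.06 ± 0.20 and 0.25 ± 0.20, the latter above 0 on both arrays. Foxj1 gave levels of 13.90 in the heterozygote and 13.31 in the homozygote on array 1, and 13.91 and 13.45 on array 2. Its homozygote levels were below both heterozygote levels, the ratio was -0.52 ± 0.09, and it missed the limit on array 2. Of 21 genes linked to IFT but outside the set, 17 were measured, with a median of -0.10. Of all measured genes 0.0591% were higher and 2.35% lower, and of those brighter than the median 0.0215% and 0.634%. Among the 17, 0 were higher and 1 was lower. That one was Dynlrb2, a roadblock light chain that dynein-2 shares with other dyneins. Its level was 13.51 in the heterozygote and 12.58 in the homozygote on array 1, and 12.96 and 11.98 on array 2. The genotypes did not overlap, the ratio was -0.95 ± 0.04, and a second probe was also lower at -0.82. The closely related light chain Dynlrb1 read -0.17 ± 0.15. The highest of the 17 was Cilk1, a kinase acting where trains turn around at the tip, at 0.19 ± 0.01 on its brightest probe, while its other measured probes read -0.02 ± 0.11 and -0.09 ± 0.04.

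BBSome genes, whose products ride on IFT trains as cargo adaptors, had a median of 0.12 (0.21 with median centring). Their values ran from -0.28 (Bbs5) to 0.18 (Bbs7), and 0 of 9 were called, against 2.41% of all measured genes. Genes of the radial spokes and central pair, parts of motile cilia, had a median of -0.17 (-0.13 with median centring). Of 27 such genes 18 were measured. Of these, 0 were higher and 1 was lower (Dydc2, -1.20 ± 0.04), against 0.0591% and 2.35% of all measured genes. The highest was Armc4 at 0.35 ± 0.23. Armc4 was on the list although its product belongs to the docking complex of outer dynein arms; the next highest was Spag16, a central pair gene, at 0.08. Ratios lay below 0 on both arrays for 11 of these 18 and for 6 of the 30 IFT members. The share was 34% of all measured genes and 25.1% of those brighter than the median. The lists also differed in signal: 2 of the 18 were brighter than the median gene, against 27 of the 30 members, and lower calls were more frequent among all genes (2.35%) than among those brighter than the median (0.634%). The part of brightness in the difference between the lists was not tested, and with 1 pool per genotype the difference itself could not be tested.

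**Figure D4:**
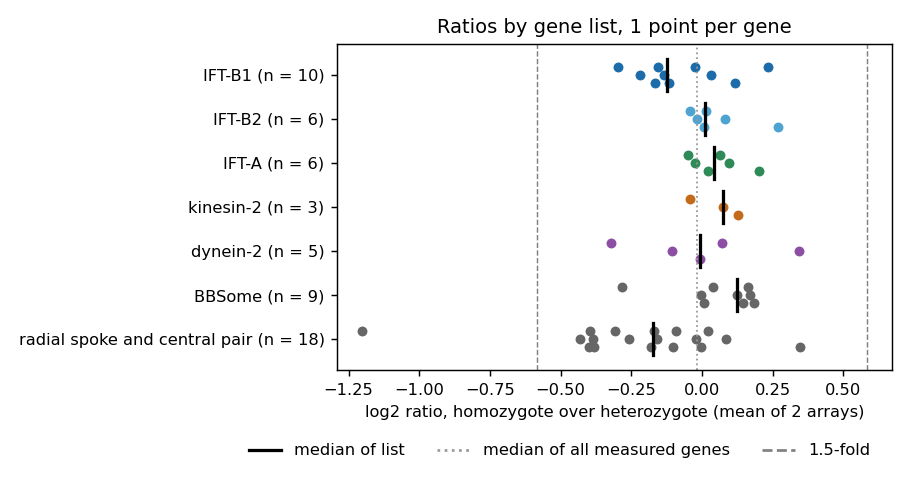
Log2 ratio of homozygote over heterozygote (x axis, mean of 2 arrays), 1 point per measured gene, for the IFT subcomplexes, the BBSome and radial spoke and central pair genes. Black bars are list medians, from -0.17 for the radial spoke list to 0.12 for the BBSome, the dotted line is the median of all measured genes (-0.02) and dashed lines are the 1.5-fold limit; Dydc2 at -1.20 is the 1 gene beyond it.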

How the data were processed

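Per the file headers, the authors read both arrays with Agilent Feature Extraction 9.5.3.1 (also in the submitters' processing notes), which wrote foreground and background intensity, processed intensity, a log10 ratio of red over green and 0 or 1 flags for each spot. Both samples of an array were deposited with identical files. The deposited value table holds processed intensity times 1.07 (array 1) or 1.28 (array 2), floored at 15, with column medians from 95.1 to 110.6; why is unstated. Each column followed the dye that its label names.

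With limma 3.58.1 (R 4.3.3), intensities were corrected by normexp (offset 50) and normalised by loess within each array, control spots at weight 0. Outlier spots (179 and 165 of 43379 gene spots) were left out, array 2 was turned, and spots of a probe were averaged. Levels are log2 values after loess and Aquantile scaling. Of 41174 probes, 33116 were named through RefSeq and 8058 kept the file's name. Scripts used Python 3.11.15, numpy 2.4.6, pandas 2.3.3 and matplotlib 3.10.9, and the normalization was tested on simulated data.

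Every member is accounted for. Those with levels printed were called by any probe, at least 0.3 from 0 with the same sign on both arrays, differed by 0.5 or more between probes, or were the highest or lowest of a subcomplex. The members and lists were chosen with earlier results of these data known. The alternatives were another background correction, the software's ratios, the value table, median centring, the mean of probes, 2 filters on dim probes, a lower fold limit, array 2 left unturned and each array alone. Probe positions are on build mm8, per the file headers, and promoters on GRCm38.p6; exons and introns were not analysed here.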

Additional observations from a re-analysis of the deposited data

How the results depend on the processing

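The count of 0 called members held under every alternative run: no background correction, the software's ratios, the value table, median centring, the mean of probes, no filter on dim probes (31 members), probes above background in both genotypes on both arrays, a lower fold limit, array 2 left unturned, and each array alone. The 2 filters on dim probes left the same representing probes for the 30 measured members, so they could not change the count among these. Array 2 left unturned asks about the dye and not the genotype. What moved was the zero point, by an amount that differed with brightness. Median centring in place of loess gave medians of 0.21 for all members, 0.20 for IFT-B, 0.27 for IFT-A and 0.24 for motors, but it also moved the median of all measured genes to 0.12 and that of genes brighter than the median to 0.202. Under it all 15 members above 0 stayed above 0, and 3 of the 15 below 0 stayed below (Ift22, Ift27 and Tctex1d2). The motor median was -0.032 with the mean of probes, and it lay between -0.037 and 0.039 on single arrays. The IFT-B median lay between -0.042 and 0.058 on single arrays. Of 50 values of the 10 measured genes named by rule under 5 settings, 7 moved beyond the SD between arrays (6 with median centring, 1 with the mean of probes) and 5 had the other sign: Ift140, Ift20 and Kif3a with median centring, and Ift140 and Kif3a with the mean of probes. The cause was not tested. Over all measured genes, 448 were called (11 higher, 437 lower), 814 with the software's ratios (101 and 713), 746 with the value table (95 and 651), and 769 and 1058 on arrays 1 and 2 alone. No paired analysis was possible because no test was made, so there was no fit to which a block could be added. The ratios and calls compared the genotypes within each array. The statements on overlap of levels compared them across arrays, where shifts between arrays also enter. Precision is limited by 1 RNA pool per genotype and 2 technical arrays, and for dim probes by signal close to background.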

Other observations

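Among the linked genes, dimmer probes, chosen after their values were seen, departed from the brightest for Lztfl1, a regulator of BBSome traffic. Its brightest probe read -0.13 ± 0.33, and its other 2 measured probes read -0.59 ± 0.25 and -0.63 ± 0.24, each below 0 on both arrays and short of the 1.5-fold limit on array 1. For the light chain gene Dynlt3, the brightest probe read 0.13 ± 0.20 and the dimmer one 0.42 ± 0.06. Ttc30a1, a close relative of Ttc30b whose probes may cross-hybridise with it, read 0.13 ± 0.05.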
